A study of Mus musculus with 8 samples.

Results

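The melanocyte genes Tyr, Tyrp1, Dct, Pmel, Mlana, Sox10, Mitf, Slc45a2, Oca2 and Syt4 were followed in RNA of tumor-associated macrophages (TAMs). They were chosen by gene symbol and make up 10 of the 21051 genes listed, and all 10 were among the 12412 genes tested. B16 tumors were taken from C57BL/6 mice 14 days after the tumor cells had been injected under the skin, and cells bearing both CD45 and F4/80 were sorted as TAMs. The comparison was between 4 libraries of WT mice (TAM-WT) and 4 libraries of mice lacking Colec11, the gene of the soluble lectin collectin-11 (TAM-KO, Colec11-/-). B16 is a mouse melanoma line of C57BL/6 origin that was injected into both genotypes. Colec11 itself had 0 to 4 expected counts in each library, too few to check the genotype. Per the study's methods the mice were males aged 8 to 10 weeks unless stated otherwise, the controls were WT littermates, and each group of TAMs came from 4 mice; no label ties a library to a mouse, and p-values measure the spread between these libraries.

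Melanocytes make melanin inside a lysosome-related organelle, the melanosome. Tyrosinase (Tyr) starts the synthesis from tyrosine, Tyrp1 and Dct act further along the eumelanin branch, and Pmel forms the fibrils on which the pigment is laid down. Mitf, a basic helix-loop-helix leucine zipper factor, is the lineage's central transcription factor, and Sox10 acts on the Mitf gene. Both factors bind near many pigment genes, Mitf at short sequences known as E-box and M-box. Macrophages are not known to make melanin, whereas pigmented melanoma cells keep much of this program; Mitf itself is also used by osteoclasts and other cells of the macrophage lineage.

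The pigment enzyme genes share a stretch of sequence before their start sites, shown here because Mitf is known to bind sequences of this kind. RefSeq promoters of the GRCm38.p6 build were at hand for 5 of the 10 genes (Tyr, Tyrp1, Dct, Mitf with 3 start sites, and Oca2), and the 250 bases before each start site were searched on both strands for TCATGTG. This sequence contains CATGTG, the E-box within it. It was found for Tyr, Tyrp1 and Dct, and for 3 of the 13 other pigment genes that had a promoter, Slc24a5, Mc1r and Trpm1. Of all 32851 promoters, 3.25% held TCATGTG and 12.3% held CATGTG. The windows below run 5′ to 3′ on the strand of the gene, with the match in capitals (it reads CACATGA where the motif lies on the other strand), and positions count back from -1 at the base before the start site.
Tyr, -32 to -6, chr7:87493518-87493544, minus strand: aaaaagttagTCATGTGctttgcagaa
Tyrp1, -57 to -31, chr4:80834156-80834182, plus strand: ggggagggagTCATGTGctgcctagta
Dct, -161 to -135, chr14:118052381-118052407, minus strand: gcacttagggTCATGTGctaacaaaga
Dct, -242 to -216, chr14:118052462-118052488, minus strand: ttggctgggaCACATGAgcccaataaa
Slc24a5, -23 to -1, chr2:125068104-125068126, plus strand: ggagactgctCACATGAttcagc
Mc1r, -62 to -36, chr8:123407020-123407046, plus strand: cacatgcccaTCATGTGgccaccctca
Trpm1, -152 to -126, chr7:64153683-64153709, plus strand: caaatcctcaTCATGTGcccaccccaa

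Around the capitals, the windows of Tyr, Tyrp1 and the nearer match of Dct shared a longer stretch of 10 bases, GTCATGTGCT, which 51 of the 32851 promoters held (0.16%). This stretch was looked for after the windows had been seen. The Tyrp1 window lies inside the span that RefSeq gives the gene, so that its position depends on the start site used. The Oca2 promoter held CATGTG once, at -186, without the leading T, and the 3 Mitf promoters held neither sequence in these 250 bases. A match is a match of letters only, and binding was not measured here.

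All 10 genes were read in all 8 libraries. Levels are given as FPKM (reads on a gene scaled to its length and to the mapped reads of the library), on which genes can be compared. The libraries other than TAM-KO replicate 1 held from 16225362 to 17280267 reads on genes. The table of TAM-KO replicate 1 lacks an unbroken run of 5311 genes, among them Dct, Mitf and Oca2, whose values for that library were taken from the table of the whole series; these 3 genes were tested on 3 TAM-KO libraries. The least abundant gene, Oca2, had from 106 to 348 expected counts per library, and the other 9 had at least 1418.

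Pmel, Dct, Tyrp1 and Mlana were among the abundant transcripts of the sorted cells. By mean FPKM over the 7 complete libraries, Pmel ranked 79 of the 12412 genes tested, Dct 94, Tyrp1 110 and Mlana 154. Slc45a2, Syt4, Sox10, Mitf and Tyr followed at the 87.8 percentile or higher, with overlapping ranges of level among these 5 genes, and Oca2 stood far below at the 28.7 percentile. The ranges of Pmel, Dct, Tyrp1 and Mlana also overlapped, so that their order is not set apart from the spread between libraries. The 10 genes together took from 0.398% to 0.889% of the reads on genes in TAM-WT and from 0.778% to 1.02% in the 3 complete TAM-KO libraries. The 95% Wilson interval of the lowest share, in TAM-WT replicate 4, was 0.395% to 0.401%, and that of the highest, in TAM-KO replicate 2, was 1.02% to 1.03%; these intervals cover counting error only.

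**Figure D1:**
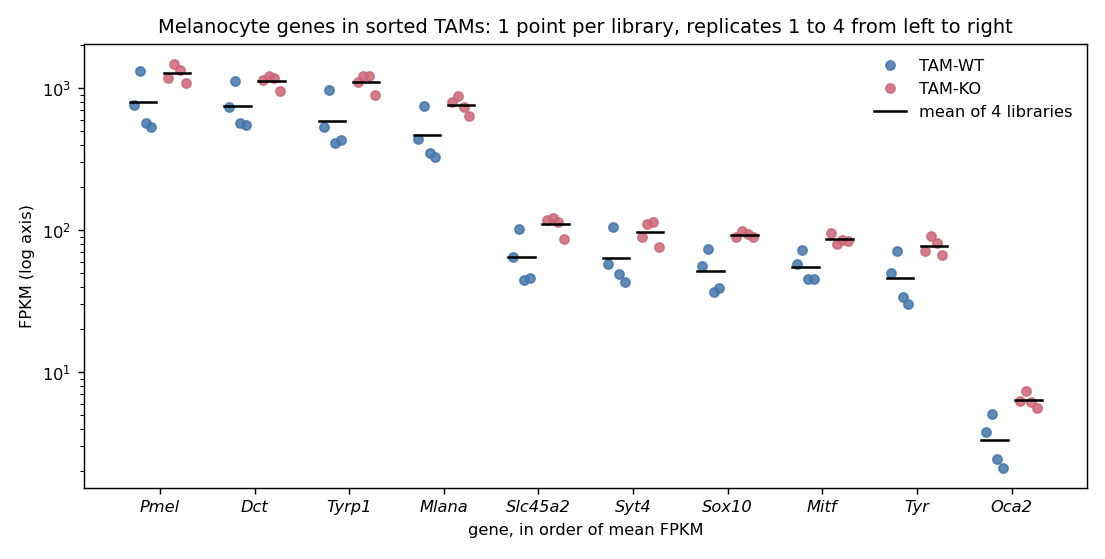
FPKM on a log axis of the 10 melanocyte genes in the 4 TAM-WT (blue) and 4 TAM-KO (red) libraries, 1 point per library, with the mean of each group as a black line. Pmel, Dct, Tyrp1 and Mlana lie between 328.5 and 1478 FPKM, Oca2 between 2.13 and 7.38 FPKM, and 1 TAM-WT point of each gene, that of replicate 2, stands above the other TAM-WT points.

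The macrophage markers Lyz2 and C1qa were at higher levels than any of the 10 melanocyte genes, whereas Adgre1 (the gene of F4/80), Csf1r and Ptprc (the gene of CD45) were below Pmel, Dct, Tyrp1 and Mlana. Lyz2 (lysozyme) ran from 4119 to 8944 FPKM over the 8 libraries, and C1qa, a subunit of complement C1q, from 1613 to 2161 FPKM over the 7 libraries with a value. Over the libraries with a value, Adgre1 ran from 182 to 239 FPKM, Csf1r from 208.5 to 283.5 FPKM and Ptprc from 39.1 to 88.7 FPKM. Pmel stood at 6.32% to 17.1% of Lyz2 in TAM-WT and at 17.6% to 32.4% in TAM-KO. Against Cd68, a lysosomal protein of macrophages, it stood at 22.9% to 72.5% in TAM-WT and at 58.7% to 108.9% in the 3 complete TAM-KO libraries. Summed over 10 macrophage genes (Ptprc, Adgre1, Csf1r, Cd68, Itgam, Fcgr1, Mertk, Lyz2, C1qa and C1qb), the level was 13110 to 15450 FPKM in TAM-WT and 10220 to 12900 FPKM in the 3 complete TAM-KO libraries. Their median log2 fold change, TAM-KO against TAM-WT, was -0.20, and edgeR called 0 of the 10, with 4 at an unadjusted p under 0.05. Lyz2 (-0.70) and Cd68 (-0.55), against which Pmel was set above, both had negative log2 fold changes. Positive ones were found for 4 of the 10, among them Fcgr1 (0.49), Ptprc (0.23) and C1qa (0.13). The ratios of Pmel thus depend on the macrophage gene chosen. DESeq2 called Cd68, Fcgr1, Mertk and Lyz2, where it called 2253 of 12412 genes. These calls moved with single libraries. Without TAM-WT replicate 2, edgeR called Cd68, Mertk and Lyz2 as lower and Fcgr1 as higher, where 2755 of 12436 genes were called. Without TAM-KO replicate 4 it called 2 of the 10 as lower, where 1136 of 12524 genes were called. Macrophage transcripts, those of the 2 sort markers among them, were thus read in the sorted cells, with the melanocyte genes present beside them. Purity was not measured from these levels. Per the study's methods, the purity of the sorted cells was determined by flow cytometry. In bulk libraries the cells that carried the melanocyte RNA cannot be told apart.

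Genotypes were compared with edgeR's quasi-likelihood test on expected counts, the number of reads that RSEM assigns to each gene. A gene was called at a p of at most 0.05 after Benjamini-Hochberg adjustment over all 12412 genes, and the log2 fold change is TAM-KO against TAM-WT. The fitted level of all 10 melanocyte genes was higher in TAM-KO, by a log2 fold change from 0.48 (Mitf) to 0.84 (Oca2) and a median of 0.62, against a median near 0 (0.0016) over all genes tested. Sox10 alone was called, 1 of 10, where 9.81% of all genes tested were called and 4.58% were called as higher in TAM-KO. None of the 10 also reached a 2-fold change, a size that 1.41% of all genes tested passed as called and higher. Their unadjusted p was under 0.05 for 8 genes, all but Dct and Syt4. A higher level in bulk RNA can come from more cells that carry a transcript or from more of it per cell, and these cannot be told apart here.

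Sox10 (NCBI gene 20665, chr15:79154913-79164490), the neural crest factor that acts on Mitf and Dct, was at 55.7, 74.2, 36.9 and 39.4 FPKM in TAM-WT replicates 1 to 4 and at 89.7, 98.6, 93.5 and 89.6 FPKM in TAM-KO replicates 1 to 4. Every TAM-KO library was above every TAM-WT library, and the TAM-KO libraries lay within 1.10-fold of each other while the TAM-WT libraries spread over 2.01-fold. The group means were 51.5 ± 17.3 FPKM in TAM-WT and 92.8 ± 4.25 FPKM in TAM-KO (SD, n = 4 each), and Sox10 rose by a log2 fold change of 0.755 ± 0.168 (SE; adjusted p = 0.0295 from edgeR). The call did not survive every omission: in the 8 fits that left out 1 library, the adjusted p from edgeR ran from 0.00179 without TAM-WT replicate 2 to 0.0975, and it passed in 3 of 8, those without TAM-WT replicate 1, TAM-WT replicate 2 or TAM-KO replicate 4.

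Mitf (NCBI gene 17342, chr6:97807002-98021360) was at 57.4, 73.1, 45.4 and 45.3 FPKM in TAM-WT replicates 1 to 4 and at 95.5, 79.6, 85.3 and 84.2 FPKM in TAM-KO replicates 1 to 4. The groups did not overlap here either, and TAM-KO replicate 1, read from the table of the whole series, was the highest library. On the 3 TAM-KO libraries of the sample tables the log2 fold change was 0.48 ± 0.14 (SE; adjusted p = 0.0613 from edgeR), and with the fourth filled in it was 0.52 (adjusted p = 0.0402 from edgeR).

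Oca2 (NCBI gene 18431, chr7:56239593-56536518), which encodes a melanosomal transporter that shapes the pH inside the organelle, was at 3.78, 5.06, 2.43 and 2.13 FPKM in TAM-WT and at 6.27, 7.38, 6.17 and 5.61 FPKM in TAM-KO, replicates 1 to 4 in each. It was the third gene without overlap between the groups. Its log2 fold change was 0.84 ± 0.25 (SE; adjusted p = 0.0669 from edgeR) without TAM-KO replicate 1 and 0.82 (adjusted p = 0.0492 from edgeR) with the fourth filled in. A pattern with every TAM-KO library above every TAM-WT library, shown by 3 of the 10 genes, was shown by 13.5% of all genes tested.

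The melanin enzymes and structural proteins had TAM-WT replicate 2 inside the TAM-KO range. Tyrp1 (NCBI gene 22178, chr4:80834123-80851736) was at 533, 976, 412 and 433 FPKM in TAM-WT replicates 1 to 4 and at 1105, 1212, 1225 and 894 FPKM in TAM-KO replicates 1 to 4. TAM-WT replicate 2 was above TAM-KO replicate 4, and the other 3 TAM-WT libraries were below all of TAM-KO. The log2 fold change was 0.82 ± 0.23 (SE; adjusted p = 0.0530 from edgeR), just above 0.05.

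Tyr (NCBI gene 22173, chr7:87424771-87493512), the rate-limiting enzyme of melanin synthesis, was at 50.1, 71.3, 33.8 and 30.1 FPKM in TAM-WT and at 71.3, 90.6, 81.7 and 66.5 FPKM in TAM-KO, replicates 1 to 4 in each. TAM-WT replicate 2 equalled TAM-KO replicate 1 and exceeded TAM-KO replicate 4. The adjusted p from edgeR was 0.108 at a log2 fold change of 0.56 ± 0.21 (SE).

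Dct (NCBI gene 13190, chr14:118012790-118052246), dopachrome tautomerase, was at 743, 1117, 565 and 551 FPKM in TAM-WT replicates 1 to 4 and at 1143, 1214, 1183 and 957 FPKM in TAM-KO replicates 1 to 4. Pmel (NCBI gene 20431, chr10:128695888-128720238) was at 761, 1322, 565 and 529.5 FPKM in TAM-WT and at 1183, 1478, 1334 and 1092 FPKM in TAM-KO. In Pmel, TAM-WT replicate 2 lay above both TAM-KO replicate 1 and TAM-KO replicate 4. Neither gene was called, with log2 fold changes of 0.49 ± 0.22 (SE; adjusted p = 0.165 from edgeR) for Dct, without TAM-KO replicate 1, and 0.59 ± 0.24 (SE; adjusted p = 0.131 from edgeR) for Pmel.

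Mlana (NCBI gene 77836, chr19:29697541-29708447), the melanosomal antigen also known as MART-1, was at 439, 748, 351 and 328.5 FPKM in TAM-WT and at 804, 884, 739 and 634 FPKM in TAM-KO, replicates 1 to 4 in each. Slc45a2 (NCBI gene 22293, chr15:11000721-11029233), a melanosomal transporter whose loss lightens coat and skin, was at 64.5, 102, 44.8 and 46.0 FPKM in TAM-WT and at 117, 121, 114 and 86.8 FPKM in TAM-KO. In both genes TAM-WT replicate 2 again exceeded TAM-KO replicate 4, and in Mlana TAM-KO replicate 3 as well. Their adjusted p from edgeR was 0.0818 and 0.0730. Syt4 (NCBI gene 20983, chromosome 18), a synaptotagmin of secretory vesicles that is not a pigment gene, was at 58.3, 105, 49.6 and 43.5 FPKM in TAM-WT and at 90.0, 111, 115 and 76.1 FPKM in TAM-KO. It had the widest spread among the TAM-KO libraries of the 10 genes, 1.51-fold, and the largest adjusted p, 0.173 from edgeR. In Syt4, TAM-WT replicate 2 exceeded TAM-KO replicates 1 and 4.

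TAM-WT replicate 2 stood nearer to TAM-KO than the other TAM-WT libraries did. It was the highest TAM-WT library for all 10 genes and lay above the lowest TAM-KO library for 7 of them, while TAM-WT replicates 1, 3 and 4 were below every TAM-KO library for all 10. From lowest to highest library, the 10 genes spread over 1.61-fold (Mitf) to 2.50-fold (Pmel) in TAM-WT and over 1.10-fold (Sox10) to 1.51-fold (Syt4) in TAM-KO. Without TAM-WT replicate 2, edgeR called all 10 genes as higher in TAM-KO, where 11.6% of all genes tested were then called as higher. The log2 fold changes of that fit ran from 0.61 ± 0.09 (SE; Mitf) to 1.14 ± 0.11 (SE; Tyrp1), and the largest adjusted p was 0.0107. DESeq2 on all libraries called 7 of the 10 (Sox10, Tyr, Tyrp1, Slc45a2, Mlana, Mitf and Oca2), against 8.71% of all genes tested called as higher. Conversely, no melanocyte gene was called in 5 of the 8 edgeR fits that left out 1 library, those that lacked replicate 3 or 4 of TAM-WT or replicate 1, 2 or 3 of TAM-KO. Few genes were called in those fits, 1.21% and 3.34% of all genes tested without TAM-WT replicates 3 and 4, and 5.47%, 0.617% and 0.617% without TAM-KO replicates 1, 2 and 3, so that 0 of 10 is near the share over all genes.

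**Figure D2:**
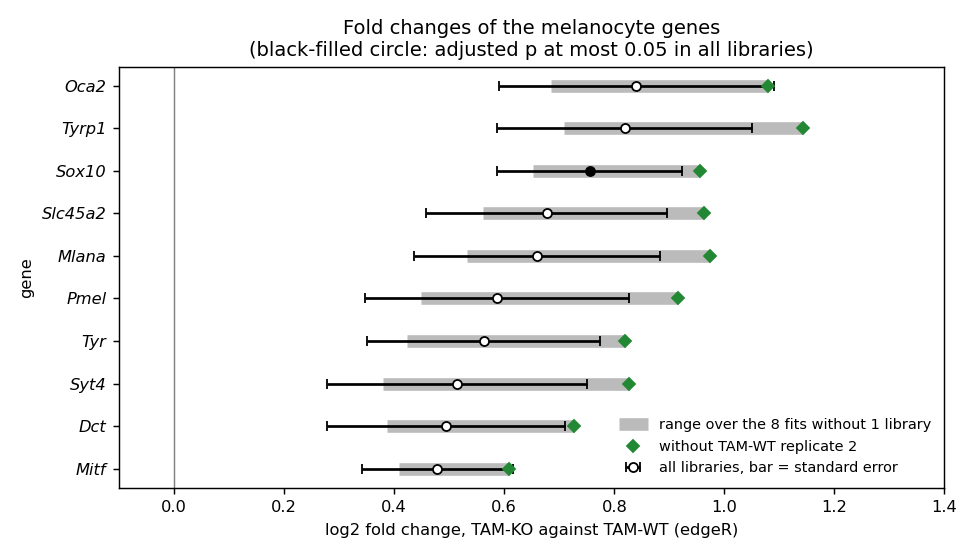
Log2 fold change of each melanocyte gene, TAM-KO against TAM-WT, from edgeR on all libraries (circles, bars are standard errors, black fill marks an adjusted p of at most 0.05), the range over the 8 fits without 1 library (grey) and the fit without TAM-WT replicate 2 (green diamonds). Sox10 is the one filled circle, all values lie above 0, and the diamond is at the upper end of the grey range for each gene.

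Summed over the 10 genes, the level was 2766, 4595, 2107 and 2049 FPKM in TAM-WT replicates 1 to 4 and 4706, 5296, 4977 and 3986 FPKM in TAM-KO replicates 1 to 4. The mean was 2879 ± 1189 FPKM in TAM-WT and 4741 ± 559 FPKM in TAM-KO (SD, n = 4 each), a ratio of 1.65. On the 7 libraries whose own tables hold every member, the log2 ratio of TAM-KO to TAM-WT was 0.79, beside a pooled standard deviation between libraries of a group of 0.44 on the log2 scale. The sum was given no test, because its members had been chosen with earlier results of these data known.

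The 10 genes moved together from library to library. Over the 45 pairs, Pearson r of log2(CPM + 1) (CPM, counts scaled to library size by TMM) ran from 0.82 (Mitf and Syt4) to 0.99 (Dct and Slc45a2), with a median of 0.96 over the 8 libraries. The exact two-sided permutation test of the pairings, adjusted over the 45 pairs, passed 0.05 for 45 of 45, with adjusted p up to 0.0202. Spearman rho was at least 0.57 and passed for 39 of 45 in the same exact test. With the mean of its group taken off each value, r ran from 0.68 to 0.99 and 44 of 45 pairs passed. The exception was Mitf with Syt4 (r = 0.68, exact permutation test, adjusted p = 0.0656). That test shuffled values across both groups, whose spreads differed, so its p-values are approximate and can be too small. It also does not show the likeness in each group: r was at least 0.89 within TAM-WT but went down to -0.97 within TAM-KO. All pairs share the same 8 libraries and their composition, and the pairs are not independent of each other. The genes had also been chosen with earlier results of these data known, and pairs of other genes were not tested for comparison. The summed level left a gap between 2766 and 3986 FPKM, with 3 libraries below it and 5 above, too few for a correlation within either.

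The relation rested in part on the libraries at the ends. Without the 2 libraries farthest from the median of the first gene, r over the remaining 6 ran from 0.49 to 0.98 with a median of 0.91, and 25 of 45 pairs passed the exact permutation test, whose smallest possible p with 6 libraries is 0.0014. Within TAM-WT, r was at least 0.89 (4 libraries, no test). Within TAM-KO it ran from -0.97 to 0.98 with a median of 0.70 (4 libraries, no test), and 9 of the 10 negative values involved Mitf.

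**Figure D3:**
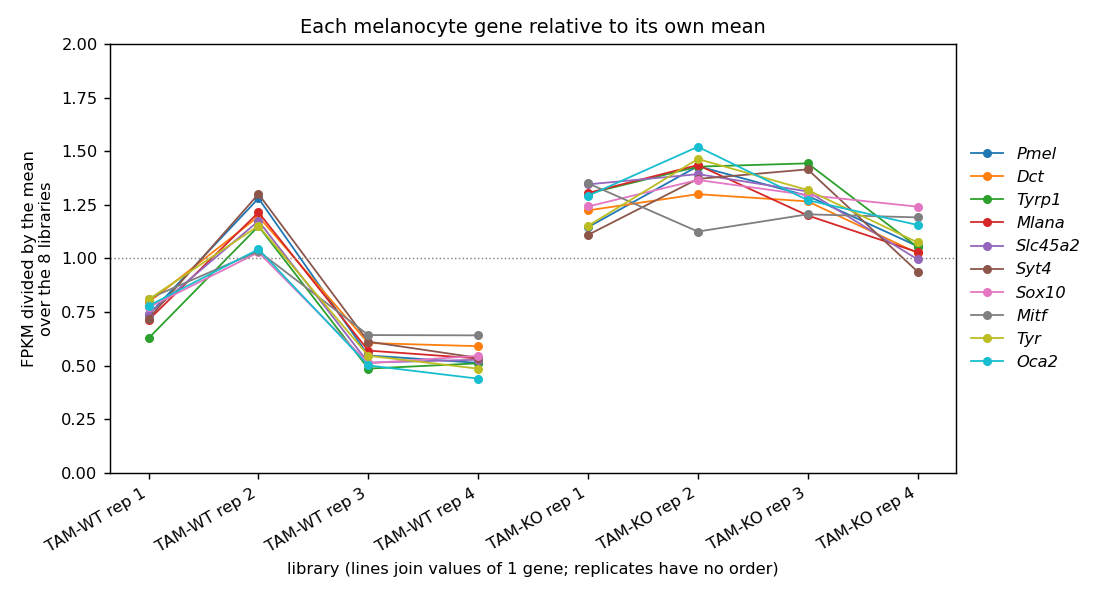
FPKM of each melanocyte gene divided by its mean over the 8 libraries, by library; lines join the values of 1 gene within a group and carry no order. The 10 lines run close together, low in TAM-WT replicates 1, 3 and 4 and higher in TAM-WT replicate 2, and Mitf departs from the others in TAM-KO, where its highest library is replicate 1 and its lowest replicate 2.

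Mitf was the gene least like the rest. Its r with the other 9 ran from 0.82 to 0.95 over the 8 libraries. With the group means taken off it ran from 0.68 to 0.83, where the other 9 genes reached at least 0.948 with some other gene. In TAM-KO, Mitf was highest in replicate 1 and lowest in replicate 2, the library in which 7 of the 10 genes were highest. Its share of the summed FPKM ran from 1.503% in TAM-KO replicate 2 to 2.21% in TAM-WT replicate 4, with a coefficient of variation of 14.4% over the 8 libraries. The slope of its log2 FPKM on the log2 FPKM sum of the other 9 genes was 0.70 ± 0.10 (SE, 8 libraries), a rise less than proportional.

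**Figure D4:**
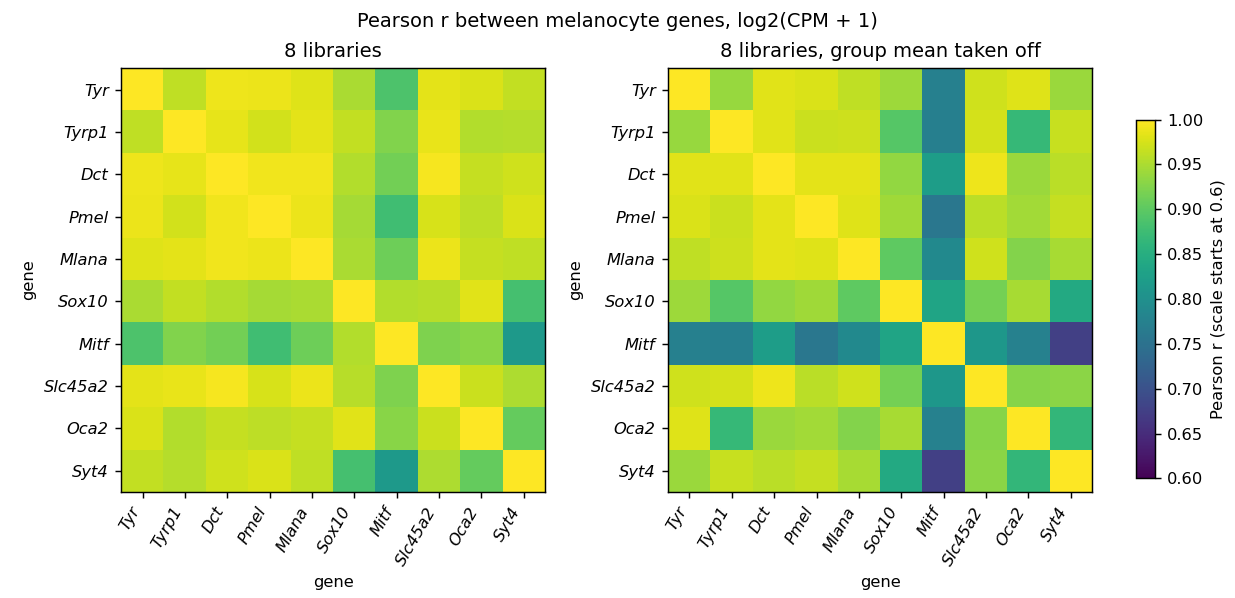
Pearson r of log2(CPM + 1) for each pair of melanocyte genes over the 8 libraries, at left as measured and at right with the mean of each genotype taken off; the color scale starts at 0.6. The row and column of Mitf hold the lowest values in both, down to 0.82 at left and 0.68 at right.

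The share of each gene in the sum varied less than its level. Coefficients of variation of the share over the 8 libraries ran from 4.22% (Mlana) to 11.3% (Oca2) for the 9 genes other than Mitf, and those of the FPKM of all 10 genes from 27.0% (Mitf) to 40.3% (Tyrp1). Pmel made up 25.1% to 28.8% of the summed FPKM in all 8 libraries and Mlana 14.8% to 17.1%, the pair of genes with the steadiest shares. Dct, whose slope on the other 9 genes was 0.80 ± 0.03 (SE), made up 26.2% ± 1.28 in TAM-WT and 23.8% ± 0.593 in TAM-KO (SD, n = 4 each). Tyrp1, with a slope of 1.22 ± 0.08 (SE), made up 20.3% ± 1.03 in TAM-WT and 23.4% ± 0.948 in TAM-KO (SD, n = 4 each). These shares depend on each other because they add up to the whole, and they were not tested.

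Of 16 other pigment and melanosome genes, 12 had a positive log2 fold change, 3 were called as higher and 1 as lower, where 9.81% of all genes tested were called and 4.58% as higher, and the median was 0.53; over the 8 fits without 1 library from 0 to 10 were called higher, the most without TAM-WT replicate 2, where 11.6% of all genes were called higher. Called higher were Mc1r, the melanocortin receptor (9.92 ± 2.81 to 18.4 ± 2.26 FPKM, log2 fold change 0.85, adjusted p = 0.0278 from edgeR), Mlph, the melanophilin that links melanosomes to myosin Va (34.7 ± 11.6 to 64.1 ± 11.1 FPKM, 0.90, adjusted p = 0.0365 from edgeR) and Cited1, a transcriptional coregulator (12.1 ± 3.75 to 25.5 ± 6.86 FPKM, 1.08, adjusted p = 0.0342 from edgeR), each SD with n = 4 and each test without TAM-KO replicate 1. Mfsd12, a cysteine importer of melanosomes and lysosomes, was called lower, from 60.6 ± 5.10 to 43.5 ± 9.48 FPKM (SD, n = 4 each; log2 fold change -0.59, adjusted p = 0.0468 from edgeR). The most abundant gene of the list, Gpnmb, a melanosomal glycoprotein that macrophages also make in quantity, was at 649 ± 127 and 748 ± 50.4 FPKM (SD, n = 4 each; log2 fold change 0.10, adjusted p = 0.679 from edgeR). Slc24a5, the melanosomal exchanger whose promoter window is shown above, was at 119 ± 53.6 and 188 ± 26.5 FPKM (SD, n = 4 each; adjusted p = 0.139 from edgeR).

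In the neural crest and melanoblast list, 7 of 11 genes were tested and their median log2 fold change was 0.28. Tfap2a, a factor of neural crest and melanocytes, rose from 5.69 ± 1.69 to 9.75 ± 0.627 FPKM (SD, n = 4 each; log2 fold change 0.67, adjusted p = 0.0304 from edgeR). Ednrb, the endothelin receptor of melanoblasts, fell from 31.3 ± 15.4 to 4.79 ± 2.44 FPKM (SD, n = 4 each; log2 fold change -3.10, tested without TAM-KO replicate 1, adjusted p = 0.0184 from edgeR), the opposite direction to the melanocyte genes. Pax3, which acts on Mitf with Sox10, was at 17.7 ± 8.15 and 29.7 ± 2.85 FPKM (SD, n = 4 each; adjusted p = 0.0907 from edgeR).

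Of the 10 Schwann cell and melanoma genes, 8 were tested, 3 were called as higher, against 4.58% of all genes tested, and none as lower, with a median of 0.40. Among those called, Mcam, the melanoma cell adhesion molecule, rose from 5.61 ± 1.60 to 9.59 ± 0.619 FPKM and L1cam, a neural adhesion molecule, from 3.45 ± 0.631 to 5.21 ± 0.516 FPKM (SD, n = 4 each). EdgeR gave them an adjusted p of 0.0285 and 0.0429, for L1cam without TAM-KO replicate 1. S100a1, the most abundant of the list, was at 84.7 ± 6.20 and 111 ± 13.5 FPKM, and S100b, a marker of melanoma, at 20.5 ± 7.13 and 31.2 ± 5.34 FPKM (SD, n = 4 each), with an edgeR adjusted p of 0.05, just above the threshold before rounding, and 0.110.

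Among 8 relatives of Mitf and genes it acts on in osteoclasts, 7 were tested. Of these, 1 was called higher and 2 lower, where 9.81% of all genes tested were called. Tfeb, Tfe3 and Tfec, the other factors of the MiT family, had log2 fold changes of -0.13, -0.10 and -0.37 (adjusted p of 0.367, 0.459 and 0.124 in edgeR). Of these factors, Tfeb and Tfec were named after their values were seen. Atp6v0d2, a proton pump subunit of osteoclasts and macrophages, fell from 84.97 ± 14.2 to 25.9 ± 11.9 FPKM and Ctsk, cathepsin K, from 47.8 ± 17.97 to 16.8 ± 7.18 FPKM, while Acp5, the tartrate-resistant acid phosphatase, rose from 21.9 ± 3.58 to 44.0 ± 8.20 FPKM (SD, n = 4 each). Their log2 fold changes were -1.81, -1.70 and 0.93, and edgeR's adjusted p was 0.0178, 0.0437 and 0.0269, with Ctsk and Acp5 tested without TAM-KO replicate 1. In the lists of neural crest, Schwann cell and osteoclast-type genes too, the counts of called genes moved with single libraries: without TAM-KO replicate 2 or replicate 3, where 0.617% of all genes were called, none of theirs was.

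**Figure D5:**
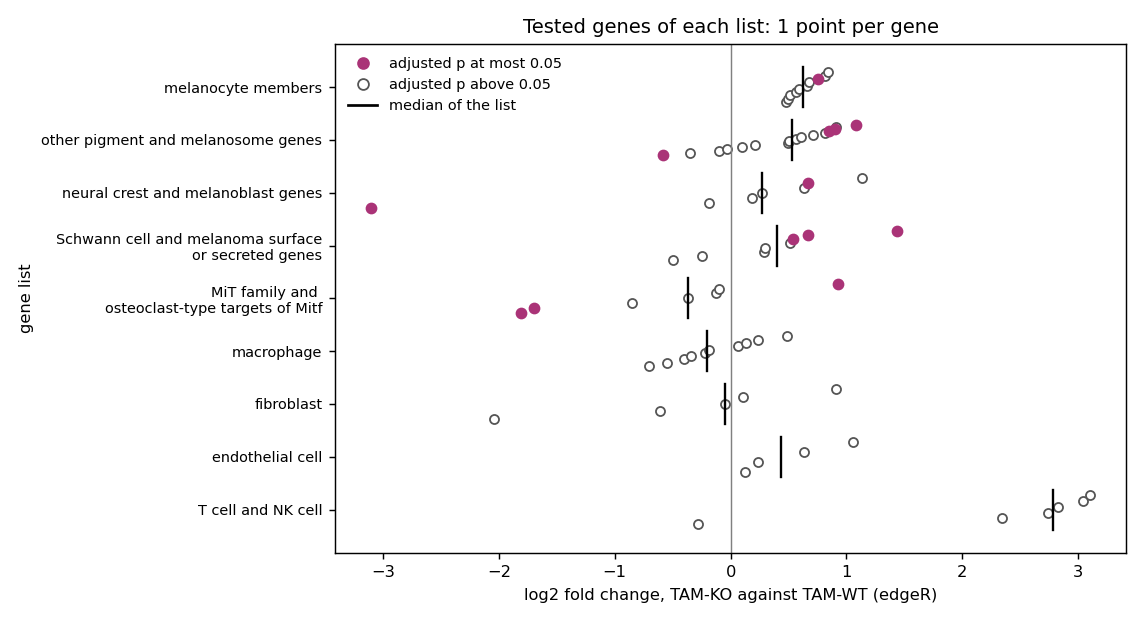
Log2 fold change, TAM-KO against TAM-WT, of each tested gene by gene list, with called genes filled and the median of each list as a line. The 10 melanocyte genes lie in a narrow band from 0.48 to 0.84, and Ednrb, at -3.10, is the point farthest to the left.

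Markers of other cells a tumor sort could hold were low, except in part those of T cells. Of the fibroblast genes none exceeded 2.10 FPKM in any library, of the endothelial genes none exceeded 6.47 FPKM, and of the keratinocyte genes 2 had a value, at most 0.110 FPKM. EdgeR called 0 genes of these 3 lists (2 at an unadjusted p under 0.05; DESeq2 called Pecam1). Summed, the 7 fibroblast genes were at 2.37 to 7.04 FPKM in TAM-WT and 3.34 to 5.15 FPKM in TAM-KO, and the 7 endothelial genes at 3.57 to 7.05 and 7.08 to 11.3 FPKM (3 complete TAM-KO libraries). The 8 T cell and NK cell genes summed to 2.04 to 17.7 FPKM in TAM-WT and to 14.8 to 50.6 FPKM in those TAM-KO libraries, and 5 of the 6 tested had positive log2 fold changes. EdgeR called 0 of them on all libraries, with 5 at an unadjusted p under 0.05, and DESeq2 called Cd8a. Without TAM-WT replicate 1, edgeR called 5 as higher (all tested but Cd4), where 1160 of 12466 genes were called. Gzmb, granzyme B, was at 6.55, 0.23, 0.47 and 0.28 FPKM in TAM-WT and at 6.17, 24.0, 22.7 and 5.14 FPKM in TAM-KO. TAM-WT replicates 2, 3 and 4 were all near the floor for Gzmb, so that their order carries no information. Over the 7 complete libraries, Pearson r with the log2 of the summed melanocyte FPKM was 0.63 for Gzmb and 0.63 for Cd8a, but -0.57 for Cd4. The part of other cells in the melanocyte values was not tested.

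The genes most like the melanocyte genes were taken by likeness to their sum. By Pearson r with the log2 of the summed FPKM over the 7 complete libraries, among 10925 genes with a mean CPM of at least 5, the closest of the genes that are not among the 10 included Gnb5, Extl1, Laptm4b, Scn8a, Slc44a3, Rapgef4, Tnk2, Rbpms and B4galt4, with r from 0.994 to 0.997. In all, 7.11% of these genes had r above 0.9 and 5.41% below -0.9, so that a high r over 7 libraries is common. Rab27a, which carries melanosomes along actin with Mlph, reached 0.99 and Slc24a5 0.99, whereas Myo5a, the motor of the same complex that macrophages also express, was at 0.07. These genes were chosen after their values were seen. The 10 macrophage genes ran from -0.92 (Adgre1) to 0.12 (Fcgr1) with a median of -0.80, on values that share each library's total. Of these closest genes, Laptm4b, a lysosomal membrane protein, was at 20.6, 28.7, 15.8 and 15.8 FPKM in TAM-WT and at 33.0, 34.0, 31.8 and 27.7 FPKM in TAM-KO.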

How the data were processed

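Group and replicate of the 8 TAM libraries, 4 WT and 4 Colec11-/-, were read from the genotype and title in the labels. Reads from the BGISEQ-500 platform were aligned by the authors with Bowtie2 and quantified with RSEM; the submitters' processing notes also name HISAT2 2.0.4, Bowtie2 2.2.5, RSEM 1.2.12 and GRCm38.p6. The expected counts deposited by the authors are not normalized, and the FPKM and TPM values deposited by the authors are scaled by gene length and library. The authors' table of the whole series also holds fold changes, p-values and q-values, which were not used.

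The table of TAM-KO replicate 1 lacks 5311 genes in 1 run, and 629 misplaced values and 1 line that joins 2 genes were left out. The series-wide table fills 1188 genes; its values equalled the sample tables in 30780 of 30780 comparisons (within 0.005). Filled values enter FPKM, CPM and correlations, not the main test.

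Expected counts were rounded and tested with edgeR 4.0.16 in R 4.3.3 (TMM, filterByExpr, glmQLFit, glmQLFTest), on 8 libraries for 9396 genes and on 7 for 3016, with Benjamini-Hochberg adjustment over both; calls had an adjusted p of at most 0.05. Correlations used scipy on log2(CPM + 1), with CPM scaled over the 12572 genes of all 8 libraries, for genes with a mean of at least 10 counts. Alternatives were DESeq2 1.42.0, DESeq2 size factors, limma 3.58.1 on log2(FPKM + 1), the same with 0.1 added, no filter, a replicate block, the omission of single libraries, a 2-fold threshold, CPM and TPM sums and, chosen after seeing the data, filled values of TAM-KO replicate 1. The fit was tested on simulated data drawn independently for each gene and library. Such data hold no shift shared by genes of a library beyond its size. They therefore do not bear on calls that moved with single libraries. Libraries of a group differed beyond sampling noise, so none was counted as a repeat.

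The 10 genes and all gene lists were chosen with earlier results of these data known. Named from each other list were the called genes and the 2 of highest mean FPKM, beside the 10 genes most like the summed level; the values of 2 genes so named are not reported here, though counts include them; Tfeb, Tfec, Rab27a, Myo5a, Cd68, Adgre1, Csf1r, Ptprc, Fcgr1, Mertk and Cd4 fall outside this rule, and Trpm1 is named for its promoter. Gene positions and promoters are those of RefSeq on GRCm38.p6.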

Additional observations from a re-analysis of the deposited data

Results flagged for a closer look

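In groups of 4 libraries, some values stood apart from the other 3 by Dixon's test at the 95% level of the gap over the range, which chance gives in about 1 of 20 groups; 8 of the 93 groups compared did, where chance gives about 4.65. Within TAM-WT, replicate 2 stood apart for Mlph (52.0 FPKM against 27.96 to 30.6, gap over range 0.888) and Pax3 (29.9 against 12.8 to 14.99 FPKM, 0.871), and it held the lowest share of Dct in the summed FPKM (24.3% against 26.8% to 26.9%, 0.967). Sox10 made up 2.25% of the summed FPKM in TAM-KO replicate 4 against 1.86% to 1.91% in the other TAM-KO libraries (0.887).

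TAM-WT replicate 1 stood apart for Cd8a (2.16 against 0.1 to 0.21 FPKM, 0.947) and Gzmb (6.55 against 0.230 to 0.470 FPKM, 0.962), both markers of cytotoxic T cells. Acp5 was at 56.3 FPKM in TAM-KO replicate 2 against 38.9 to 40.6 FPKM (0.905). Krt14 was at 0.07 FPKM in TAM-WT replicate 4 and listed at 0 in the other TAM-WT libraries (1.0), which is 1 count.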

How the results depend on the processing

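The direction of all 10 melanocyte genes was the same in the 15 other fits over all genes. The 1218 genes called became 2253 with DESeq2 and from 77 to 2755 without 1 library, the most without TAM-WT replicate 2. Of the 10 genes, 1 was called in the main test (of all genes, 1218 of 12412) and 7 with DESeq2 (2253 of 12412). Limma called 3 on log2(FPKM + 1) (1324 of 12412) and 3 on log2(FPKM + 0.1) (1284 of 12412). Without the filter on low counts 2 were called (1226 of 16514), and with TAM-KO replicate 1 filled 3 (1109 of 12396). At a 2-fold threshold 0 were called, and without 1 library from 0 to 10. The cause of these differences was not tested. With the replicate number as a block, 1080 genes and 6 of the 10 were called; the numbers did not pair the libraries, as deviations of same-numbered libraries correlated at -0.41, 0.02, -0.29 and 0.29. On the FPKM scale with 0.1 added, the median of all genes shifted to 0.11 (log2), and that of the 10 genes lay 0.69 above it. The log2 ratio of the summed level, 0.79 in the main setting, ran from 0.66 without TAM-WT replicate 4 to 1.05 without TAM-WT replicate 2. Each alternative thus differed from the main value by less than 0.44, the spread between libraries of a group. Pairs past the exact test numbered 25 of 45 without the 2 farthest libraries. Every one of the 10 genes had at least 106 expected counts in each library, and the fitted standard errors carry the spread between libraries as well as counting error.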
